A study of Mus musculus with 12 samples.

Results

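The 34 genes described here mark the cells that line blood and lymphatic vessels: receptors for vessel growth factors, junction and surface proteins, secreted factors and the transcription factors of endothelial identity. They were taken by name, all 34 had an Ensembl identifier among the 55487 deposited, and 33 had enough counts to be tested. Levels come from bulk RNA sequencing of 12 mouse melanoma tumors. In the 6 Arf6-null tumors the labels give a BrafCA allele with homozygous floxed Cdkn2a and homozygous floxed Arf6. The 6 wild-type tumors carry the same BrafCA and floxed Cdkn2a alleles with Arf6 intact, so wild type refers to Arf6 alone. BrafCA is a Cre-activatable oncogenic Braf allele. The labels name no Cre driver, age, sex or strain, so they do not say which cell types of a tumor lost Arf6. Arf6 encodes a small GTPase of membrane traffic.

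Endothelial cells respond to VEGF ligands through the receptor kinases Kdr and Flt1, and lymphatic endothelial cells through Flt4. The Tie receptors and angiopoietins set how stable a vessel is, and delta-Notch signalling limits sprouting. ETS factors such as Erg and the SOXF factors Sox7, Sox17 and Sox18 keep these genes on, while Prox1 sets lymphatic identity. Tumors depend on such vessels for oxygen and for the entry of immune cells.

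Arf6 itself, the check of the labels, averaged 18.3 ± 3.73 CPM in Arf6-null tumors and 111 ± 24.9 CPM in wild-type tumors (SD, n = 6 each). CPM are counts scaled to the TMM-adjusted library size. Library totals ran from 21007954 to 45688253 counts in Arf6-null and from 22211738 to 30326419 in wild-type tumors. Xist was above 100 CPM in 1 Arf6-null library (replicate 6) and in 3 wild-type libraries (replicates 3, 5 and 6), so the sexes are not balanced. Libraries with Y-linked expression are those with a sum of Y-linked genes above 10 CPM. In wild-type replicate 1 this sum was only 22.3 CPM, with Xist at 0.239 CPM. In the other such libraries it ran from 148 to 248 CPM. Wild-type replicates 3, 4 and 5 held skeletal muscle RNA: the sum of 15 muscle markers was 2774, 1829 and 3900 CPM there, at most 92.3 CPM in Arf6-null libraries and at most 268 CPM in the other wild-type libraries. Pvalb, a calcium buffer of fast muscle, was the 1 muscle marker that passed (0.170 ± 0.152 CPM in Arf6-null and 25.7 ± 37.3 CPM in wild-type tumors, adjusted p = 0.0392 by edgeR). That call held in 3 of the 12 fits that leave out 1 library and was lost with limma-voom (adjusted p = 0.0597) and, by edgeR, without a filter (0.0697), with the Y-linked covariate (0.0847), with the muscle covariate (0.437), in the libraries with Y-linked expression (0.0788) and without the muscle-rich libraries (0.186). Of 10 melanocyte lineage markers 3 had enough counts to be tested and Mlana was at 0 in all libraries, while the 6 pan-endothelial genes Cdh5, Pecam1, Esam, Erg, Clec14a and Mmrn2 were found in every library. Library numbers ran from 19 to 24 in Arf6-null and from 1 to 6 in wild-type tumors, so anything that follows these numbers cannot be told apart from the genotype.

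As a group the endothelial genes were at lower levels in Arf6-null tumors, and no single gene passed the test across all genes. Of the 33 tested, 27 had a negative log2 fold change (Arf6-null over wild type) and 6 a positive one. The median was -0.85, against -0.03 over all 16225 tested genes, of which 52.8% were negative. At an edgeR quasi-likelihood adjusted p under 0.05, 0 of the 33 were lower and 0 were higher, where 0.561% of all tested genes were lower and 0.586% were higher. At an unadjusted p under 0.05, 14 of the 33 were lower and 2 were higher, where 12.4% and 11.0% of all tested genes were. Other tools gave more calls on the same libraries. DESeq2 called 9 lower and 2 higher (6.63% and 5.21% of the genes it tested), and limma-voom called 7 lower and 0 higher (2.76% and 2.98%). The sum of the 6 pan-endothelial genes was not lower. It was 197, 244 and 494 CPM (lowest, median and highest) in Arf6-null and 147, 208 and 367 CPM in wild-type tumors. Of those 6 genes, 4 had a negative log2 fold change and 2 a positive one. In bulk RNA, fewer endothelial cells and less of the endothelial transcripts per endothelial cell cannot be told apart.

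**Figure D1:**
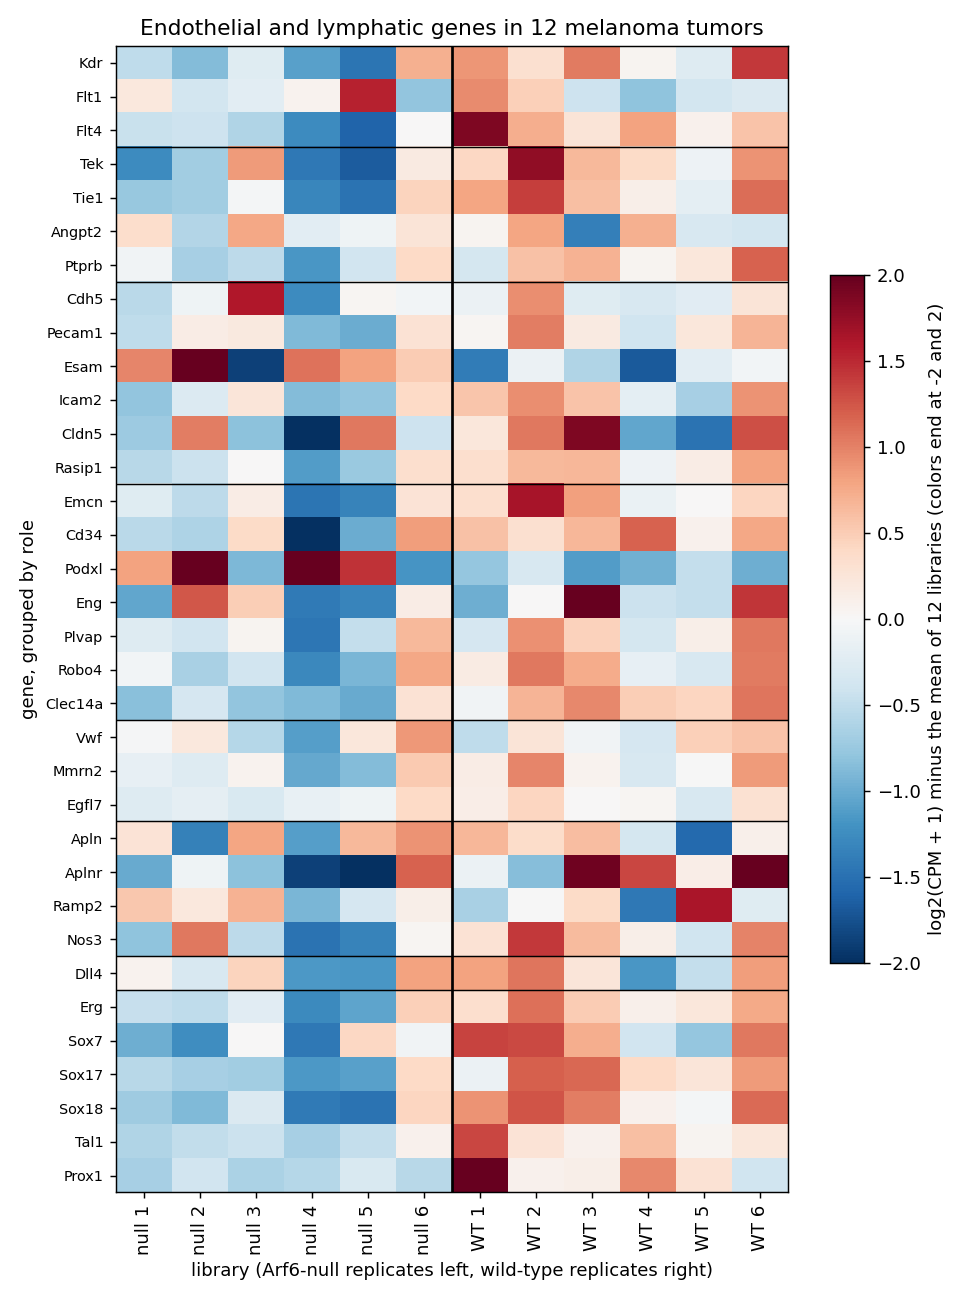
Level of each of the 34 genes in each library, as log2(CPM + 1) minus the mean of the gene over the 12 libraries, with Arf6-null replicates 1 to 6 on the left of the line and wild-type replicates 1 to 6 on the right. Most rows are lower on the left, Arf6-null replicate 6 lies within the wild-type range for 28 genes, and the highest values of Esam and Podxl are on the left.

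The number of calls turned on Arf6-null replicate 6. This library was the highest of its genotype for 22 of the 34 genes and lay within the wild-type range for 28 of them. Arf6-null replicate 4 was the lowest of its genotype for 18 genes and lay below the wild-type range for 26. Among wild-type tumors, replicate 2 was the highest for 16 genes, and replicates 5 and 4 were the lowest for 14 and 11. Wild-type replicate 5 lay within the Arf6-null range for 28 genes. Its tumor number, 20681, is close to those of the Arf6-null tumors (19836 to 20570), while the other wild-type numbers run from 5526 to 7657. Wild-type replicates 1 and 4, numbered 5526 and 7657, lay within the Arf6-null range for 24 genes each. The part of tumor number in these levels was not tested. Without Arf6-null replicate 6, 9 genes were lower and 1 was higher at an edgeR adjusted p under 0.05, where 2.11% and 2.01% of all genes were. The 9 were Kdr, Flt4, Tie1, Rasip1, Clec14a, Erg, Sox17, Sox18 and Tal1, and the other was Podxl. Without wild-type replicate 5 the calls were Flt4, Clec14a and Tal1, all lower (1.71% of all genes), and without wild-type replicate 2 they were Clec14a and Tal1 (2.32%). In the other 9 fits that leave out 1 library, edgeR called no member.

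Markers of supporting cells also differed between the libraries. The sum of 14 mural cell markers (pericytes and smooth muscle) was 340.5 CPM in Arf6-null replicate 6 and 70.7 CPM in replicate 4, and ran from 233 to 536 CPM in wild-type tumors. Of these markers 12 of 13 tested had a negative log2 fold change, with 0 passing in either direction and a median of -0.92. The sum of 12 fibroblast markers was 13218 CPM in Arf6-null replicate 6, 2007 CPM in replicate 4 and 6419 to 23600 CPM in wild-type tumors, with all 12 log2 fold changes negative and none passing. The libraries did not keep 1 order: wild-type replicate 2, the highest for 16 endothelial genes, had the lowest fibroblast sum of its genotype (6419 CPM), and Arf6-null replicate 2 was at 3947 CPM. The part of these cells, of sex and of muscle RNA in the endothelial differences was not tested. The median log2 fold change of the endothelial genes was -0.996 without the 3 muscle-rich wild-type libraries and -1.07 in the libraries with Y-linked expression (5 Arf6-null, 3 wild-type). Fits that adjust for a covariate gave a median of -0.70 for the Y-linked level and -1.18 for the muscle score.

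**Figure D2:**
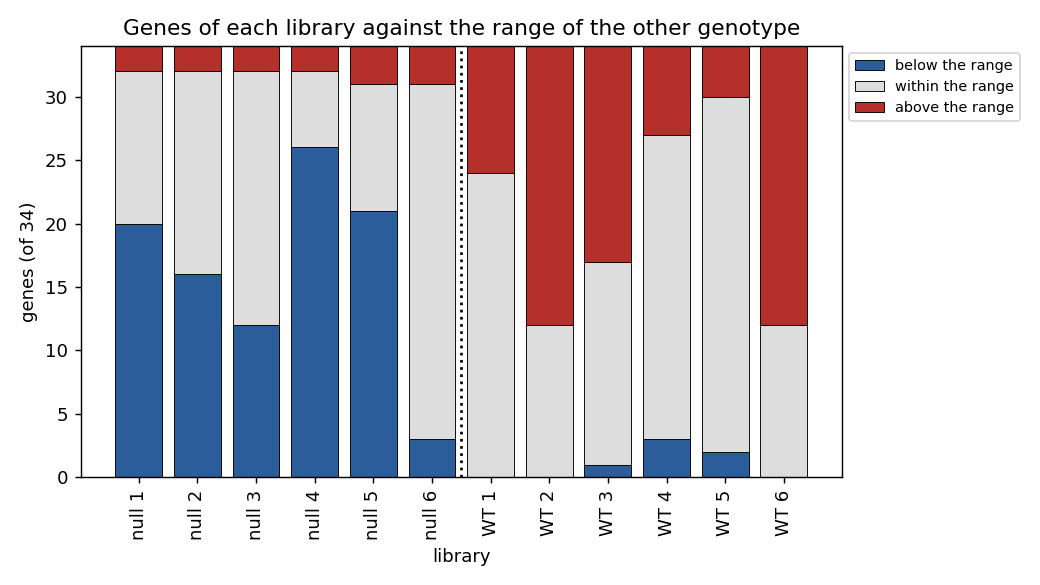
For each library, the number of the 34 genes whose CPM lies below, within or above the range of the 6 libraries of the other genotype. Arf6-null replicate 4 has 26 genes below the wild-type range, Arf6-null replicate 6 and wild-type replicate 5 have 28 within the other range, and wild-type replicates 2 and 6 have 22 above the Arf6-null range.

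Among the VEGF receptors, the lymphatic receptor Flt4 separated the genotypes and Flt1 did not. Flt4 was at 1.38, 4.02 and 6.22 CPM (lowest, median and highest) in Arf6-null tumors, against 6.68, 10.3 and 25.4 CPM in wild-type tumors. It was the only tested member whose ranges did not overlap, and 1.21% of all tested genes had non-overlapping ranges with Arf6-null lower. Its log2 fold change was -1.71 (SE 0.41, adjusted p = 0.0595 by edgeR). Kdr, the main signalling receptor for VEGF-A, was at 5.81, 10.7 and 29.6 CPM in Arf6-null and 14.6, 27.9 and 48.6 CPM in wild-type tumors. Its ranges overlapped, with Arf6-null replicates 3 and 6 above wild-type replicate 5 (log2 fold change -1.14, SE 0.41, adjusted p = 0.133 by edgeR). Flt1, which binds VEGF-A with high affinity and is also made by other cells, was at 26.7, 44.8 and 137 CPM in Arf6-null and 26.3, 37.0 and 90.5 CPM in wild-type tumors. Its highest value came from Arf6-null replicate 5, the library with the least Kdr, and its log2 fold change of 0.24 (SE 0.42) turned to -0.23 without that library.

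The Tie receptors were lower on average in Arf6-null tumors while their ligand Angpt2 was not. Tie1, an orphan receptor that modulates Tek, was at 5.70, 10.3 and 24.3 CPM in Arf6-null and 15.3, 29.3 and 47.7 CPM in wild-type tumors (log2 fold change -1.28, SE 0.39, adjusted p = 0.0864 by edgeR). Tek, the angiopoietin receptor, was at 1.42, 2.98 and 12.9 CPM in Arf6-null and 6.19, 10.2 and 25.4 CPM in wild-type tumors. For both receptors Arf6-null replicates 3 and 6 reached above wild-type replicate 5, and the other 4 Arf6-null libraries lay below all wild-type ones. The log2 fold change of Tek was -1.31 (SE 0.56, adjusted p = 0.184 by edgeR). Ptprb, the phosphatase that acts on Tek, averaged 15.1 ± 6.09 CPM in Arf6-null and 26.98 ± 10.5 CPM in wild-type tumors. Angpt2, the antagonist released by activated endothelium, averaged 17.5 ± 6.17 CPM in Arf6-null and 16.7 ± 8.81 CPM in wild-type tumors (log2 fold change 0.07, SE 0.37). The difference between the change of the receptors and that of Angpt2 was not tested.

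Promoters of endothelial genes are known for binding sites of ETS factors, the family of Erg. RefSeq windows of 300 bases (250 before and 50 after each start, GRCm38.p6) were at hand for 18 of the 34 genes, 24 windows in all. The letters CNGGAAG, searched on both strands, were in 16 of the 24 windows (66.7%, from 14 genes), against 31.9% of all 32851 windows. The core GGAAG was in 19 of the 24 (71.4% of all windows), CAGGAAG in 8 (13.3%) and CCGGAAG in 0 (8.86%), and all 3 overlap with CNGGAAG or hold its core. Of the 24 windows 9 held the SOX letters ACAANG (41.2%), 3 the GATA letters AGATAA (11.2%) and 1, that of Clec14a, the hypoxia response letters ACGTG (19.6%). The windows of 4 receptors and surface proteins are shown because Flt4, Clec14a and Tie1 had low levels in Arf6-null tumors and Flt1 did not, and all 4 hold the same letters. Capitals mark CNGGAAG or its reverse complement.
Flt4 (chr11:49609429-49609728, + strand): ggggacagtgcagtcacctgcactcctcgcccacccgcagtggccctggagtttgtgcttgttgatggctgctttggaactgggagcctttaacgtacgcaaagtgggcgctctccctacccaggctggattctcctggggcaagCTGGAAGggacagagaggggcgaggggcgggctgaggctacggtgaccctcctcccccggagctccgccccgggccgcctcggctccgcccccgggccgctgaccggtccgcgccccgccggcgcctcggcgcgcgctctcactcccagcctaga
Clec14a (chr12:58269209-58269508, - strand): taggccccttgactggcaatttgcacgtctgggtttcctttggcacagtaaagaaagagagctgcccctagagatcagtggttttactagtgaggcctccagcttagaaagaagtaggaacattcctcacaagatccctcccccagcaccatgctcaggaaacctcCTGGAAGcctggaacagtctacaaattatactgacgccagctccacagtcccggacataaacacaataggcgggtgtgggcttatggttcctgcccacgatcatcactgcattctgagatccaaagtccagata
Tie1 (chr4:118489800-118490099, - strand): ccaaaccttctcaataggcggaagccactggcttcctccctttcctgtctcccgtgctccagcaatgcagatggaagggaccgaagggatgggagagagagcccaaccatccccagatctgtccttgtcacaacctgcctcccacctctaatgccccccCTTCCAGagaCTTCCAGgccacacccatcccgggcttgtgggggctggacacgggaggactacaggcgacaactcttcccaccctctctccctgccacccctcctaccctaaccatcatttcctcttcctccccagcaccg
Flt1 (chr5:147725962-147726261, - strand): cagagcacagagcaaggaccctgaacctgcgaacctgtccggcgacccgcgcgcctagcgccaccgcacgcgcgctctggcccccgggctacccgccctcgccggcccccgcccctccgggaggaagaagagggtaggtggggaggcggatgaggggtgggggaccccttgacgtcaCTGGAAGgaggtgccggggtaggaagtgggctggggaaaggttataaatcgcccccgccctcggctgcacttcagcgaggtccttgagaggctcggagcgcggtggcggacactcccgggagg
The match begins at position -105 in Flt4, -84 in Clec14a and -73 in Flt1, counted back from the start, and 2 matches on the other strand begin at -91 and -81 in Tie1. Each of them reads CTGGAAG on one of the strands, so the marked matches are neither CAGGAAG nor CCGGAAG. The spelling CTGGAAG was looked up after these 4 were seen. It was in 7 of the 24 windows (29.2%), these 4 among them, and in 9.06% of all windows. Whether Erg or another ETS factor binds this spelling was not tested. A match in these windows is a description and not a measured binding site.

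Transcription factors formed the role group with the lowest median, -1.55 over 5 tested genes. All 5 were lower at an unadjusted edgeR p under 0.05, where 12.4% of all tested genes were. None passed the adjusted threshold, with adjusted p by edgeR from 0.0594 (Tal1) to 0.184 (Sox7). Erg, an ETS factor that maintains endothelial identity, was at 2.05, 4.27 and 9.28 CPM in Arf6-null and 6.93, 8.86 and 14.8 CPM in wild-type tumors (log2 fold change -1.08, SE 0.35, adjusted p = 0.103 by edgeR). Sox18, a factor for early vessel and lymphatic development, was at 2.03, 3.89 and 10.4 CPM in Arf6-null and 7.20, 15.5 and 19.2 CPM in wild-type tumors (log2 fold change -1.55, SE 0.42, adjusted p = 0.07 by edgeR). Sox17, which is used in arteries, was at 0.660, 1.29 and 3.84 CPM in Arf6-null and 2.39, 4.75 and 7.41 CPM in wild-type tumors (log2 fold change -1.67, SE 0.46, adjusted p = 0.0712 by edgeR). For all 3 genes Arf6-null replicate 6 was the only library of its genotype to reach into the wild-type range. Sox7, the remaining SOXF gene, did not follow this order: Arf6-null replicate 5 was highest in its genotype at 4.16 CPM and wild-type replicates 4 and 5 were at 1.97 and 1.27 CPM.

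Tal1, a factor of blood and endothelial progenitors that mast and red cell precursors also use, was at 0.528, 0.736 and 1.57 CPM in Arf6-null and 1.53, 1.89 and 5.17 CPM in wild-type tumors. The log2 fold change was -1.56 (SE 0.38, adjusted p = 0.0594 by edgeR). Limited to libraries with Y-linked expression, the comparison kept 3 wild-type libraries, among them replicate 1 with its low Y-linked sum. Tal1 was the only member that edgeR called there (adjusted p = 0.0355), where 0.753% of all genes were lower. Its highest wild-type values were 5.17 CPM in replicate 1 and 2.69 CPM in replicate 4, and the sum of 11 mast cell markers was also highest there, at 908 and 936 CPM, against 67.4 to 450.1 CPM in the other wild-type and 8.29 to 162 CPM in the Arf6-null libraries. The part of mast cells in the level of Tal1 was not tested.

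Prox1, the factor that sets lymphatic identity, was near the floor of detection in Arf6-null tumors and did not pass the filter on low counts. It had 28 counts over the 6 Arf6-null libraries and 274 over the 6 wild-type libraries, of which wild-type replicate 1 held 141 and wild-type replicate 4 held 64. Levels were 0, 0.0722 and 0.294 CPM in Arf6-null and 0.208, 0.829 and 5.61 CPM in wild-type tumors, so the ranges overlapped at the wild-type low end, through Arf6-null replicates 2 and 5 and wild-type replicate 6. On the log2(CPM + 1) scale an exact permutation test over the 12 libraries gave p = 0.00649 (two-sided, 1 test). Of the 34 genes only Prox1, which the filter removed, was given this test, and its p is not adjusted for that choice. Without a filter the edgeR log2 fold change was -3.73 (SE 0.85, adjusted p = 0.0746 by edgeR over all genes with a count), and DESeq2 gave an adjusted p = 0.000312. Of 9 tested genes in a list of further lymphatic genes, 7 had a negative log2 fold change and 0 passed. Mmrn1, a lymphatic multimerin, was high in the same wild-type libraries, at 22.6 CPM in replicate 1 and 7.99 CPM in replicate 4, and at 0.0784 to 1.02 CPM in Arf6-null tumors (adjusted p = 0.0828 by edgeR). Lyve1, a hyaluronan receptor of lymphatics and some macrophages, did not follow them: it was highest in wild-type replicate 5, at 33.96 CPM, and at 19.4 CPM in Arf6-null replicate 1.

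**Figure D3:**
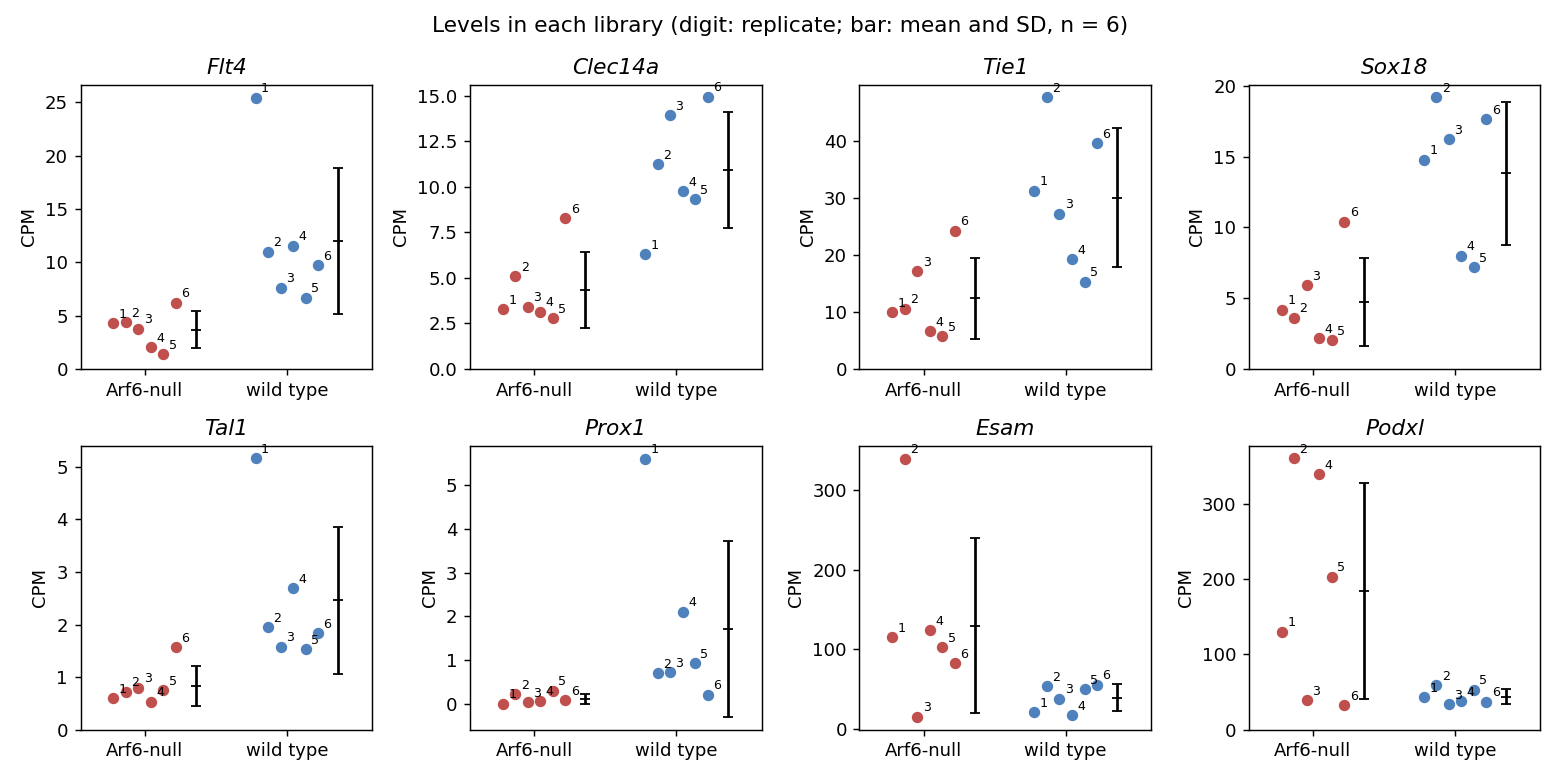
CPM of 8 genes in each library, Arf6-null on the left and wild type on the right, with the replicate number beside each point and the mean and SD (n = 6) as bars. Flt4 is the gene whose groups do not touch (Arf6-null at most 6.22, wild type at least 6.68 CPM), Arf6-null replicate 6 is the highest of its genotype for Flt4, Clec14a, Tie1, Sox18 and Tal1, and Esam and Podxl are high in some Arf6-null libraries.

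Junction proteins had means in both directions, with 4 of 6 log2 fold changes negative. Cdh5, the VE-cadherin of endothelial adherens junctions, averaged 81.7 ± 65.6 CPM in Arf6-null and 75.5 ± 30.0 CPM in wild-type tumors (log2 fold change 0.11, SE 0.42). The Arf6-null mean rested on replicate 3, at 212 CPM, while the other 5 lay between 28.4 and 71.2 CPM, and without replicate 3 the log2 fold change was -0.43. Pecam1, an adhesion protein of endothelium, platelets and leukocytes, averaged 53.7 ± 20.4 CPM in Arf6-null and 79.6 ± 28.6 CPM in wild-type tumors (log2 fold change -0.57, SE 0.29, adjusted p = 0.259 by edgeR). Rasip1, a Ras-interacting protein needed for lumen formation, was at 2.61, 4.55 and 8.94 CPM in Arf6-null and 6.31, 10.1 and 12.7 CPM in wild-type tumors (log2 fold change -0.90, SE 0.30, adjusted p = 0.107 by edgeR). Arf6-null replicates 3 and 6 lay within the wild-type range and the other 4 below it. The exons of Rasip1 overlap those of other genes on either strand, and the strand setting of the counts is not given in the sources used here. Icam2, a ligand for leukocyte integrins, averaged 3.55 ± 1.82 CPM in Arf6-null and 6.45 ± 2.83 CPM in wild-type tumors, and the tight junction gene Cldn5 averaged 14.6 ± 11.9 CPM in Arf6-null and 24.1 ± 18.8 CPM in wild-type tumors.

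Esam and Podxl were the 2 members with a higher level at an unadjusted edgeR p under 0.05. Esam, an adhesion molecule of endothelial tight junctions, was at 15.2, 109 and 339.5 CPM in Arf6-null tumors, against 17.4, 43.9 and 55.7 CPM in wild-type tumors. In 5 of 6 Arf6-null libraries, all but replicate 3, it was above every wild-type library (log2 fold change 1.73, SE 0.56, adjusted p = 0.106 by edgeR). Podxl, a sialomucin of endothelial lumens that is also made by kidney podocytes and some tumor cells, was at 32.2, 167 and 361 CPM in Arf6-null and 33.7, 40.2 and 59.4 CPM in wild-type tumors. Arf6-null replicates 1, 2, 4 and 5 were above every wild-type library, and replicates 3 and 6, at 39.4 and 32.2 CPM, were not (log2 fold change 2.07, SE 0.55, adjusted p = 0.0674 by edgeR). Arf6-null replicate 4 shows the split most plainly, with the least Cd34, Cdh5 and Erg of its genotype and 339.7 CPM of Podxl. Per kilobase of exon, Esam ranked 1 and Podxl 2 of the 34 genes by level in Arf6-null tumors (45.3 and 33.6 CPM per kb), and they ranked 6 and 11 in wild-type tumors (13.7 and 8.01 CPM per kb).

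Of the surface proteins, Clec14a had the smallest p, which was also the smallest edgeR p of the 33 members that passed the filter. Prox1 had a smaller adjusted p than Clec14a by edgeR without a filter (0.0746 against 0.0776) and by DESeq2 (0.000312 against 0.00105). By edgeR it was larger for Prox1 without Arf6-null replicate 6 (0.0563 against 0.02) and in the libraries with Y-linked expression (0.0653 against 0.0589). Clec14a, an endothelial lectin, was at 2.78, 3.34 and 8.28 CPM in Arf6-null and 6.28, 10.5 and 15.0 CPM in wild-type tumors (log2 fold change -1.33, SE 0.31, adjusted p = 0.0562 by edgeR). The groups overlapped through Arf6-null replicate 6 and wild-type replicate 1. Emcn, a mucin of capillaries and veins, averaged 10.5 ± 5.29 CPM in Arf6-null and 22.5 ± 12.2 CPM in wild-type tumors (log2 fold change -1.10, SE 0.41). Cd34, which fibroblasts and blood progenitors also carry, had the highest level per kilobase in wild-type tumors (20.8 CPM per kb in Arf6-null and 38.3 CPM per kb in wild-type tumors). It ran from 26.7 to 319.9 CPM across Arf6-null and from 189 to 407 CPM across wild-type libraries. Eng, a coreceptor of BMP signalling, averaged 53.0 ± 41.2 CPM in Arf6-null and 93.2 ± 94.5 CPM in wild-type tumors, the larger mean being set by wild-type replicates 3 and 6 at 266 and 141 CPM. Plvap, the protein of endothelial diaphragms, averaged 35.7 ± 16.6 CPM in Arf6-null and 54.4 ± 22.8 CPM in wild-type tumors, and Robo4, a receptor that stabilizes vessels, averaged 8.65 ± 5.40 CPM in Arf6-null and 15.6 ± 6.65 CPM in wild-type tumors.

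Secreted and matrix proteins had the role group median closest to 0, at -0.20. Vwf, the clotting glycoprotein stored in endothelium and platelets, averaged 24.7 ± 11.6 CPM in Arf6-null and 25.7 ± 7.87 CPM in wild-type tumors (log2 fold change -0.06, SE 0.32). Egfl7, a vascular matrix factor, averaged 38.8 ± 7.87 CPM in Arf6-null and 44.6 ± 8.002 CPM in wild-type tumors (log2 fold change -0.20, SE 0.15). The matrix protein Mmrn2, a binding partner of Clec14a, averaged 11.9 ± 5.11 CPM in Arf6-null and 18.0 ± 7.10 CPM in wild-type tumors. Egfl7 shares exon positions with Agpat2 on the other strand and with Gm20532 on its own. Exons of Cd34, Eng, Nos3, Dll4, Sox17 and Prox1 also overlap a gene on the other strand, among them Fpgs for Eng and Atg9b for Nos3, and those of Ramp2 overlap Vps25 on the same strand. Reads in such stretches cannot be told apart here, which limits the values of these genes.

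Apelin and its receptor had log2 fold changes of opposite sign. Apln, the peptide made by sprouting endothelium, averaged 18.8 ± 10.5 CPM in Arf6-null and 17.1 ± 7.84 CPM in wild-type tumors (log2 fold change 0.14, SE 0.48). Aplnr was at 1.81, 4.98 and 24.4 CPM in Arf6-null and 5.23, 19.3 and 49.7 CPM in wild-type tumors (log2 fold change -1.60, SE 0.72, adjusted p = 0.207 by edgeR). Its spread was wide in both genotypes, and Arf6-null replicate 6 alone was above 10 CPM in its group. Nos3, the endothelial nitric oxide synthase, averaged 4.99 ± 4.52 CPM in Arf6-null and 9.77 ± 4.81 CPM in wild-type tumors. Ramp2, the subunit that makes the adrenomedullin receptor, averaged 28.5 ± 10.8 CPM in Arf6-null and 31.2 ± 26.1 CPM in wild-type tumors, and its log2 fold change of -0.13 turned to 0.43 without wild-type replicate 5, which held 81.7 CPM. Dll4, the Notch ligand of tip and arterial cells, averaged 10.6 ± 6.14 CPM in Arf6-null and 14.9 ± 7.82 CPM in wild-type tumors (log2 fold change -0.48, SE 0.47).

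**Figure D4:**
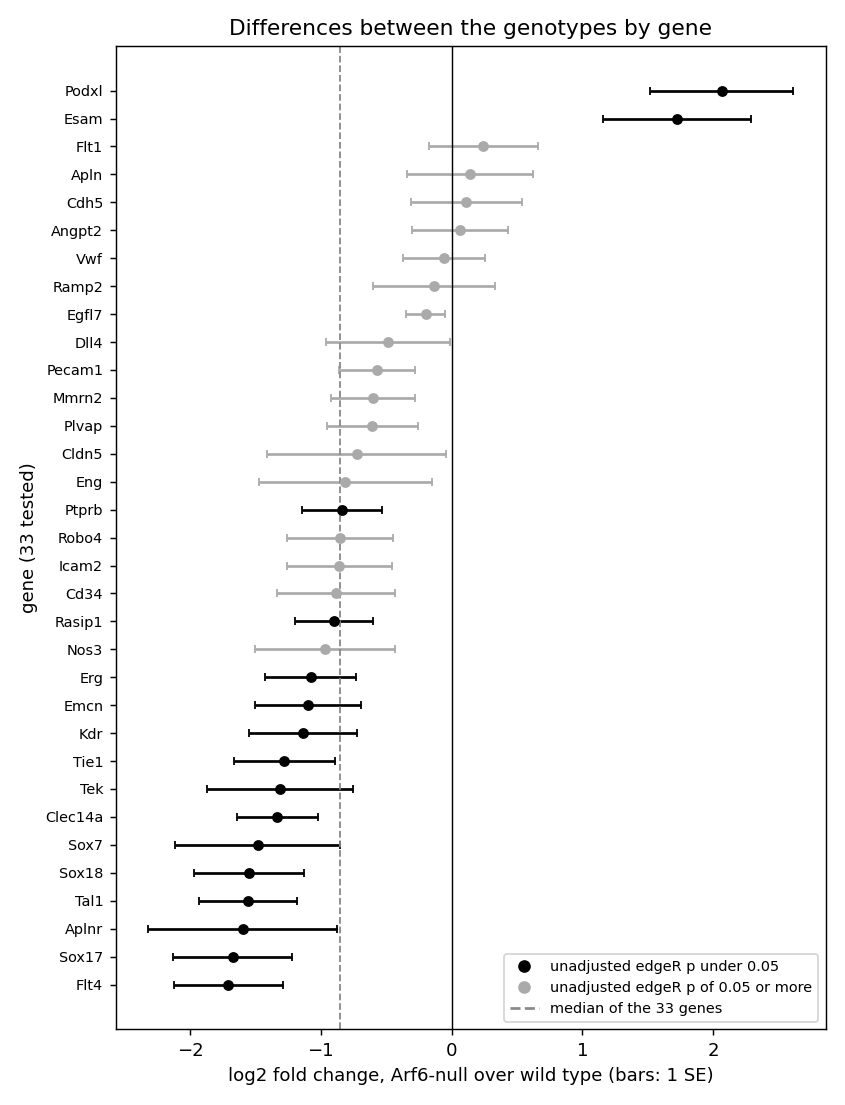
Log2 fold change (Arf6-null over wild type) and its SE for the 33 tested genes, from edgeR, in order of size, with genes at an unadjusted p under 0.05 in black. The dashed line is the median of -0.85: 27 genes lie below 0, from Egfl7, Ramp2 and Vwf near 0 to Flt4 at -1.71, while Esam and Podxl lie at 1.73 and 2.07.

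Of the VEGF and angiopoietin ligands and coreceptors outside the members, 1 of 10 tested genes passed. Nrp1, the VEGF coreceptor that also serves neurons and other cells, fell to 44.5 ± 20.1 CPM in Arf6-null tumors, against 144 ± 58.4 CPM in wild-type tumors (log2 fold change -1.70, SE 0.34, adjusted p = 0.04 by edgeR), with ranges of 19.8 to 80.3 CPM and 84.6 to 225 CPM that did not overlap. It was called in 3 of the 12 fits that leave out 1 library, those without Arf6-null replicate 6 or wild-type replicate 2 or 5, and in the other 9 the adjusted p by edgeR was 0.0649 to 0.0886. The Nrp1 call was also lost without a filter (adjusted p = 0.0585), with the Y-linked covariate (0.0809), with the muscle covariate (0.157) and without the muscle-rich libraries (0.123), all by edgeR. Vegfa, the main growth factor for blood vessels, averaged 112 ± 61.6 CPM in Arf6-null and 84.2 ± 80.6 CPM in wild-type tumors (log2 fold change 0.41, SE 0.62). Vegfc, a ligand of Flt4, averaged 3.48 ± 1.78 CPM in Arf6-null and 7.21 ± 4.14 CPM in wild-type tumors (log2 fold change -1.05, SE 0.45, adjusted p = 0.182 by edgeR). Hypoxia-induced genes, many of which respond to the same factor as Vegfa, had a positive log2 fold change for all 12 tested, a median of 1.15 and 0 passing. At an unadjusted edgeR p under 0.05, 11 of them were higher and 0 lower, where 11.0% and 12.4% of all tested genes were. The sum of the hypoxia-induced genes was lowest in Arf6-null replicate 6 among its genotype, at 1340 CPM against 2490 to 4460 CPM in the other 5. It ran from 913 to 2136 CPM in wild-type tumors. Ankrd37, an ankyrin repeat protein, had the smallest p of them (61.6 ± 20.4 CPM in Arf6-null and 14.1 ± 11.7 CPM in wild-type tumors, adjusted p = 0.0615 by edgeR). The part of hypoxia in the endothelial differences was not tested.

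In the other lists of vessel genes no gene passed. Negative log2 fold changes were found for 7 of 10 tested Notch and arterial genes, 9 of 11 genes of ALK1 and BMP signalling, 6 of 7 venous and adhesion genes, 7 of 8 capillary genes, 6 of 10 tip cell genes and 12 of 16 endothelial receptors and adaptors, against 52.8% of all tested genes. Their medians were -0.75, -0.19, -0.31, -0.54, -0.22 and -0.71. The tip cell share is near that of all genes, and at an unadjusted edgeR p under 0.05 this list had 3 genes higher and 2 lower. Jag1, a Notch ligand, was at 11.7, 23.5 and 36.4 CPM in Arf6-null and 39.1, 49.3 and 69.8 CPM in wild-type tumors, with no overlap (adjusted p = 0.052 by edgeR). Meox2, a homeobox factor of capillary endothelium, was at 2.16, 2.75 and 6.79 CPM in Arf6-null and 4.25, 10.2 and 14.6 CPM in wild-type tumors (adjusted p = 0.07 by edgeR). Afap1l1, an actin-associated protein, averaged 6.35 ± 3.55 CPM in Arf6-null and 19.2 ± 7.48 CPM in wild-type tumors (adjusted p = 0.0595 by edgeR). The smallest p of the remaining lists belonged to Smad5, a BMP signal transducer (103 ± 6.41 CPM in Arf6-null and 151 ± 36.6 CPM in wild-type tumors, adjusted p = 0.0639 by edgeR), to Nr2f2, a factor of veins (126 ± 29.8 CPM in Arf6-null and 92.4 ± 26.2 CPM in wild-type tumors, adjusted p = 0.228 by edgeR), and to Lxn, a carboxypeptidase inhibitor (303 ± 125 CPM in Arf6-null and 116 ± 100.1 CPM in wild-type tumors, adjusted p = 0.116 by edgeR).

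Scaling to endothelial content asked which members stood apart from the vessel genes as a whole. Library sizes were replaced by the geometric mean of Cdh5, Pecam1, Esam, Erg, Clec14a and Mmrn2. On this scale 0 of the 27 tested members outside these 6 passed, where 0.764% of all genes did. Of these members 20 were negative, against 20.7% of all genes, with the median of all genes shifted to 0.40. Flt4 had a log2 fold change of -1.53 and Podxl of 2.63 on this scale. Without Arf6-null replicate 6, Podxl was called higher and Aplnr, Sox17 and Sox18 lower, 4 genes in all, where 5.22% of all genes were higher and 0.632% lower. Podxl was the 1 call without Arf6-null replicate 3 (0.886% of all genes higher), and Flt4 the 1 call without wild-type replicate 5 (0.699% lower). The 6 scaling genes themselves ran from -1.33 (Clec14a) to 1.73 (Esam) before the scaling, which limits them as a measure of endothelial content.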

How the data were processed

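RNA from 12 tumors (Direct-zol kit) was made into TruSeq Stranded mRNA libraries, per the labels' protocols. The submitters' processing notes name STAR 2.7.3a, featureCounts 1.6.3, DESeq2 1.26.0 and the build GRCm38 (mm10). The deposited table holds raw counts per Ensembl gene. Not given in the sources used here: strand setting, treatment of multi-mapping reads, annotation release. Symbols, positions and exon lengths came from GENCODE M21 of GRCm38.

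Genotype labels defined the groups. The design text calls the tumors matched, and no label ties a tumor of one genotype to one of the other. Separate animals are not stated for the tumors. The p-values therefore cover only the spread among the 12 tumors, and whether some of these share an animal is not known. filterByExpr (at least 10 counts) left 16225 genes. edgeR 4.0.16 in R 4.3.3 compared the genotypes by the quasi-likelihood test with TMM scaling and robust dispersion, adjusted by Benjamini-Hochberg over all tested genes at 0.05. Each SE is the fold change over the root of F. Alternatives used DESeq2 1.42.0 and limma 3.58.1. On counts simulated for this comparison the test called 46.9% of 2-fold and 67.7% of 4-fold changes among 16028 genes, with 5 false calls among 115, and 0 calls with no change. The simulated counts were drawn for each gene on its own and changed only by genotype. They hold no differences in muscle RNA or sex between libraries, so they do not measure false calls from these. The 34 genes, the lists and the core were chosen with earlier results of these data known. Named genes were the 34, Arf6, the gene with the smallest p in each further list of vessel or hypoxia genes, and any listed gene past the threshold. Vegfa, Vegfc and Lyve1 were named after their values were seen.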

Additional observations from a re-analysis of the deposited data

Results flagged for a closer look

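A test for a library that lies far from the other 5 of its genotype was run on log2(CPM + 1) for the 34 genes in each genotype, 68 sets of 6 values. It singled out 2 of the 68 sets, a smaller share than the about 1 in 20 that chance gives. Both concern Arf6-null replicate 6. Egfl7 was at 5.79 there, against 5.08 to 5.31 in the other Arf6-null libraries (54.4 CPM in this library). Tal1 was at 1.36 there, against 0.612 to 0.849 in the others (1.57 CPM in this library). This library is also the only Arf6-null library with Xist above 100 CPM.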

How the results depend on the processing

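No member passed with median-of-ratios or upper-quartile scaling, without a filter, with a filter of 10 CPM in 6 libraries, with Y-linked expression or the muscle score as a covariate, or without the 3 muscle-rich libraries. Members called numbered 11 with DESeq2, 7 with limma-voom, 7 at an adjusted p under 0.1, 1 in the libraries with Y-linked expression (an alternative added after seeing the data) and 0 to 10 when 1 library was left out. Over all genes 186 were called, and 2241 with DESeq2, 931 with limma-voom, 31 with the Y-linked covariate, 16 with the muscle covariate, 35 without the muscle-rich libraries, 1359 at 0.1 and 25 to 766 with 1 library left out. In the Y-expressing libraries 198 were called. The median of the members stayed negative under every alternative run, from -1.07 to -0.70 with 1 library left out. Scaled to the endothelial core, 1 member passed without a filter, 1 with the 10 CPM filter, 3 in the Y-expressing libraries, 1 with Cdh5 alone as the core, 1 with a core of 27 members, 4 at an adjusted p under 0.1 and 0 to 4 with 1 library left out. For the core-scaled fits, shares of all genes are given above only for the main fit and for fits that leave out 1 library. The other core-scaled counts have no background beside them and are not read as a result about the members. Most genes counted with the core of 27 members belong to that core.

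Signs turned for some genes. With the Y-linked covariate log2 fold changes became -0.15 for Flt1, -0.094 for Angpt2, -0.061 for Cdh5, 0.039 for Eng, 0.16 for Vwf, 0.40 for Ramp2 and -0.35 for Vegfa. With the muscle covariate they became -0.17 for Flt1, -0.51 for Angpt2, -0.50 for Cdh5, 0.080 for Eng, -0.46 for Apln, 0.35 for Ramp2 and -0.47 for Vegfa. Without the muscle-rich libraries they became -0.16 for Flt1, -0.090 for Angpt2, -0.18 for Cdh5, -0.12 for Apln, 0.45 for Ramp2 and -0.23 for Vegfa. In the Y-expressing libraries they became -0.45 for Angpt2, 0.44 for Eng, -0.20 for Apln, 0.77 for Ramp2 and -0.041 for Vegfa. With limma-voom they became -0.11 for Cdh5, 0.0069 for Vwf, -0.19 for Apln and 0.33 for Ramp2. With 1 library left out they ran from -0.23 to 0.52 for Flt1, -0.12 to 0.28 for Angpt2, -0.43 to 0.36 for Cdh5, -0.30 to 0.10 for Vwf, -0.057 to 0.33 for Apln, -0.33 to 0.43 for Ramp2 and -1.74 to 0.25 for Lyve1. The cause of these turns was not tested. No paired analysis was possible because the labels join no Arf6-null tumor with a wild-type one. Depth limits Prox1, which had at most 13 counts in an Arf6-null library.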

Other observations

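Pdpn, a glycoprotein of lymphatic endothelium and of some fibroblasts and tumor cells, was not taken by the naming rule and was looked up after its values were seen. It was at 3.76, 13.6 and 89.6 CPM in Arf6-null and 24.9, 87.4 and 289 CPM in wild-type tumors (log2 fold change -2.30, SE 0.83, edgeR adjusted p = 0.133). Its highest wild-type values, 289 CPM in replicate 2 and 206 CPM in replicate 1, were not in replicate 5, where Lyve1 was highest.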
